A study of Mus musculus with 21 samples.

Results

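Livers of mice examined 28 days after nano-TiO2 entered the airways were compared with livers of vehicle mice of the same day. The comparison holds 10 of the 21 arrays of the series, 6 from mice given nano-TiO2 and 4 from controls, chosen by the treatment and the day in the labels. All were female C57BL/6 mice, bought at 5 to 7 weeks of age and acclimatized for 1 to 3 weeks. Under anaesthesia with Hypnorm and Dormicum, TiO2 mice received 162 µg of nano-TiO2 once through the trachea, in 40 µl of water with 0.9% NaCl and 10% lung lavage fluid, freed of cells, from untreated donors. Control mice received 40 µl of that fluid without particles. The other arrays came from 5 control and 6 TiO2 livers taken on day 1. The series title states the question, whether instilled particles that leave the lung reach the liver, and this comparison asks what the liver's RNA looked like 4 weeks on.

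Each array held RNA of 1 liver, labelled with Cy5, against a common reference RNA pooled from 11 mouse cell lines, labelled with Cy3. A level is therefore a log2 ratio of liver over reference, and a difference is TiO2 minus control on that log2 scale, fitted with limma with the scan day of the array as a block. A probe entered when its liver signal was well above background on at least 4 of the 10 arrays. That left 17201 features, of which 11071 were named genes with 1 probe each and 6130 were probes without a gene name. In the labels each sample counts as a biological replicate.

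The liver draws blood from the gut and from the general circulation through sinusoids lined by a leaky endothelium. Kupffer cells, the resident macrophages of the sinusoids, take up particles from the blood, and the endothelial cells take up soluble and colloidal material through scavenger receptors. Hepatocytes make the plasma proteins, among them acute phase proteins that respond to inflammation elsewhere, and they fold these in the endoplasmic reticulum with chaperones under the control of the unfolded protein response. They also make cholesterol under SREBP2 and turn it into bile acids through Cyp7a1.

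The arrays were read on 3 scan days, with 1 control and 2 TiO2 livers on days 1 and 3 and 2 of each on day 2, and 4 slides carried 1 control and 1 TiO2 liver side by side. Scan day made up 90.8% of the first principal component of the 10 arrays, which held 49.7% of the variance, and the treatment made up 0.0221% of it. Components 2, 3 and 4 held 19.4%, 7.26% and 6% of the variance. The treatment made up 1.5%, 5.92% and 36.6% of these, and scan day 74.6%, 7.31% and 4.26%. Day 2 arrays had 20990 to 23619 liver probes well above background and the others 12985 to 16903, and the quality report in the header was in range for 2 control and 3 TiO2 arrays. All 14 hepatocyte markers with a named probe were well above background on all 10 arrays. The extraction protocol in the labels speaks of lungs: the surfactant gene Sftpb and the alveolar gene Ager were above background on 0 of the 10 arrays, and Sftpc on 1. Other lung markers were seen more often, with Sftpd, Lamp3 and Cyp2f2 above background on all 10 arrays. Slc34a2 was above background on 8, Scgb1a1 on 6, Napsa on 5, Aqp5 on 4, and Sftpa1, Scgb3a1 and Chia1 on 3. Control replicate 1 and TiO2 replicate 5 stood apart from the other livers in a number of genes. The genes with the smallest p or the largest differences and the list medians were refitted without each liver, and values that move by over 1.5 times are given for those above 0.1 in size. Because values shift with the scan day, runs of values of single livers are given below in the order of scan days. Runs of 4 controls come from scan days 1, 2, 2 and 3, and runs of 6 TiO2 livers from scan days 1, 1, 2, 2, 3 and 3. Ranges of a group and statements on the overlap of the groups pool the scan days. The fitted difference can depart from the plain difference of the group means.

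At day 28 the livers of TiO2 mice and of controls differed little. With limma, 0 of 17201 features passed an adjusted p of 0.05 (0%), and the smallest adjusted p was 0.9999. At an unadjusted p under 0.05, 520 features were called, 3.02% of those tested, with 255 higher (1.48%) and 265 lower (1.54%) in TiO2 livers. The 5th and 95th percentiles of the differences were -0.19 and 0.21, and the median half-width of the 95% interval of a difference was 0.24. Differences over 0.5 in size were found for 37 features that were higher (0.215%) and 25 that were lower (0.145%). The values of the 6 TiO2 and the 4 control livers did not overlap for 24 features that were higher (0.14%) and 24 that were lower (0.14%). For comparison, 709 features (4.12%, with 2.19% higher and 1.94% lower) reached an unadjusted p under 0.05 between TiO2 and control on day 1, and 1332 (7.74%, with 3.85% higher and 3.89% lower) between the controls of day 28 and of day 1, in the same fit. In each of these 3 comparisons 0 features passed the adjusted p, so the named genes below are descriptions of the leading values and not calls.

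**Figure D1:**
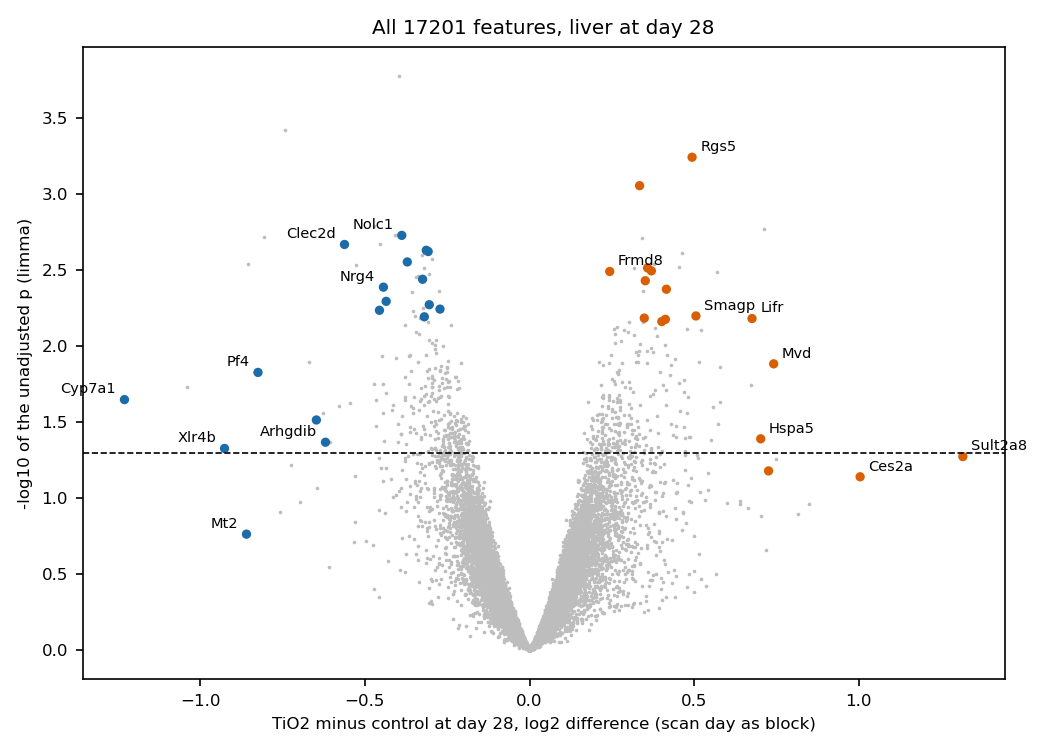
Each point is a feature, with the fitted log2 difference of TiO2 minus control liver at day 28 on the x axis and -log10 of the unadjusted p of limma's fit across all features on the y axis; the dashed line marks the unadjusted threshold of 0.05, and coloured points are the genes named by smallest p or largest difference (orange higher, blue lower). Most points lie within 0.2 of 0, and the largest differences, such as Sult2a8 and Cyp7a1, do not have the smallest p-values.

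Among the 12 named genes that were higher with the smallest p, 11 were higher within each of the 3 scan days and 10 within each of the 4 shared slides. Over all features, 13.2% were higher within each scan day and 5.19% within each slide, but these genes were picked for their p, so the counts describe them and test nothing. Their differences ran from 0.24 to 0.68, and 8 of them were well above background on all 10 arrays. On day 1, 4 of the 12 had a difference above 0, as did 7830 of all 17201 features. For 8 of them the day 28 effect differed from the day 1 effect at an unadjusted p under 0.05, and 0 of 17201 features passed the adjusted p in that test (512 features, 2.98%, at the unadjusted p, with 1.89% higher and 1.09% lower). The day 28 difference by which these genes were picked is part of that change, so this count also tests nothing.

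Rgs5, a regulator of G-protein signalling typical of pericytes, led the named genes. Its level was -0.05 in the control liver and 0.52 and 0.74 in the TiO2 livers of scan day 1. On scan day 2 both controls read 1.62 and the TiO2 livers 2.02 and 1.81. On scan day 3 the control read 0.66 and the TiO2 livers 1.15 and 1.40. Every TiO2 liver was thus above every control of its own scan day, while the groups as a whole overlapped. The difference was 0.49 ± 0.12 (SE), against -0.21 on day 1. It was 0.50 without control replicate 1 and TiO2 replicate 5, and 0.16 when normexp background correction was applied to all spots, including those the scanner software marked as uneven.

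Lum encodes lumican, a proteoglycan that binds collagen fibrils in the matrix. It read 2.19, 2.51, 2.44 and 2.15 in the 4 controls and 2.34, 2.62, 2.74, 2.71, 2.88 and 2.65 in the 6 TiO2 livers. All TiO2 livers but the first lay above all controls, and the difference was 0.37 ± 0.11. In the list of stellate cell and collagen genes that holds it, 11 of 21 measured members were above 0 and the median was 0.02, with Col4a2, a basement membrane collagen, at -0.22 ± 0.13 and Dcn, which encodes decorin, at 0.27 ± 0.19.

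Bcl2l11 encodes Bim, which promotes apoptosis by binding survival proteins of the Bcl2 family. It was between -1.25 and -0.92 in the controls and between -0.87 and -0.48 in the TiO2 livers, so the groups did not overlap. The difference was 0.35 ± 0.11, and 0.08 on day 1. The apoptosis regulators as a list were near 0 at day 28, with 13 of 19 above 0 and a median of 0.02. Cflar, an inhibitor of death receptor signalling, was at -0.23 ± 0.12 and its other 2 probes at -0.06 and 0.06.

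Frmd8, whose protein binds the iRhom regulators of the protease ADAM17, also showed no overlap, with -0.83 to -0.71 in controls and -0.68 to -0.44 in TiO2 livers. The difference was 0.24 ± 0.07, while a second probe of the gene gave 0.00. Hjv encodes hemojuvelin, the BMP co-receptor through which hepatocytes set hepcidin. It read 1.69, 1.26, 1.43 and 0.90 in controls and 1.70, 2.09, 1.71, 1.66, 1.62 and 1.69 in TiO2 livers. The control of scan day 1 lay inside the TiO2 range, and the other 3 controls were below it. The difference was 0.42 ± 0.13, and 0.14 with normexp on all spots. Of the 18 measured genes of metal handling, 11 were above 0 and the median was 0.05. Hjv, already picked for its p, was the 1 that reached limma's unadjusted p under 0.05 (1.48% of all features did in that direction).

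Lair1, an inhibitory collagen receptor of leukocytes, was higher by 0.40 ± 0.13, and its second probe gave 0.28. Smagp, a small adhesion glycoprotein of epithelia, was higher by 0.51 ± 0.17 (0.29 without control replicate 4), and Pxdc1 by 0.35 ± 0.12. Exo5, a single-strand DNA exonuclease, was higher by 0.41 ± 0.14, but within scan day 3 its difference was -0.05. Probes of 2 further genes of the 12 went against their own other probes. Lifr, the receptor of leukaemia inhibitory factor, was at 0.68 ± 0.22 on its brightest probe and between -0.07 and 0.01 on its 3 other probes. Hnrnpa1, an RNA-binding protein with many near-identical copies in the genome, was at 0.36 ± 0.11 (0.23 without control replicate 1) and at -0.12 and 0.00 on 2 other probes. The olfactory receptor probe Olfr726 was at 0.33 ± 0.09.

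All 12 named genes that were lower with the smallest p were lower within each of the 3 scan days (13% of all features were), and 9 were lower within each of the 4 slides (5.44% of all features). Their differences ran from -0.27 to -0.56. On day 1, 10 of the 12 had a difference below 0 as well, while 7830 of all 17201 features were above 0. The day 28 effect differed from the day 1 effect at an unadjusted p under 0.05 for 4 of the 12. These counts, too, describe genes picked for their p.

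Clec2d, a lectin that is a ligand of natural killer cell receptors, had the largest difference of these. It read 1.75, 1.41, 1.46 and 1.38 in controls and 1.49, 0.78, 0.90, 1.07, 0.78 and 0.88 in TiO2 livers. The first TiO2 liver lay among the controls and the other 5 below them, and the difference was -0.56 ± 0.16. The T, B and NK cell markers as a list were at a median of -0.03, with 5 of 13 above 0. Nrg4, a ligand of the receptor ErbB4, read 1.30, 2.00, 1.92 and 1.77 in controls and 1.33, 1.03, 1.43, 1.70, 0.89 and 1.24 in TiO2 livers. Its difference was -0.44 ± 0.14 against 0.01 on day 1. Betacellulin, Btc, a ligand of the EGF receptor, was at -0.24 ± 0.09, and its signal was well above background in 3 control livers and 1 TiO2 liver. The 14 genes of EGF receptor signalling had a median of 0.02.

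Among the lower genes were Nolc1, Riok1 and Llph, a member of the ribosome biogenesis list. Nolc1, a nucleolar phosphoprotein, read -0.78, -1.89, -1.60 and -1.40 in controls and -1.19, -1.39, -2.0, -2.21, -1.87 and -1.58 in TiO2 livers, a difference of -0.39 ± 0.11. Llph read between -0.27 and 0.17 in controls and between -0.51 and -0.33 in TiO2 livers without overlap, a difference of -0.31 ± 0.09, and of -0.16 over the arrays whose quality report was in range. Riok1, a kinase of late small-subunit maturation, was at -0.31 ± 0.09, with its 2 other probes at -0.22 and -0.12. In the list of 28 ribosome biogenesis genes, 12 were above 0, the median was -0.06, and 9 were lower within each of the 3 scan days (13% of all features were). In that list Llph and Utp25, the latter at -0.24 ± 0.08, reached an unadjusted p under 0.05 (1.54% of all features did so in that direction) and did not overlap between groups (0.14%), though Utp25 was well above background in just 2 livers of each group, while Bop1 was at 0.27 ± 0.15. The list's median was -0.04, -0.03 and -0.01 within the 3 scan days, and without control replicate 1 it was 0.03.

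Of the other lower genes, Pbld1 was at -0.37 ± 0.11, Gigyf2, a translational repressor, at -0.32 ± 0.10 and its second probe at -0.26, and Ankrd12 at -0.44 ± 0.14. Napsa, an aspartic protease of lung and kidney, was at -0.30 ± 0.10 (-0.19 without control replicate 1) and was well above background on 5 of the 10 arrays. Mchr1 was at -0.27 ± 0.09 and Ammecr1l at -0.32 ± 0.11. B4galt2, a galactosyltransferase, was at -0.46 ± 0.15, at -0.26 without control replicate 1 and at -0.06 in the liver channel alone.

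**Figure D2:**
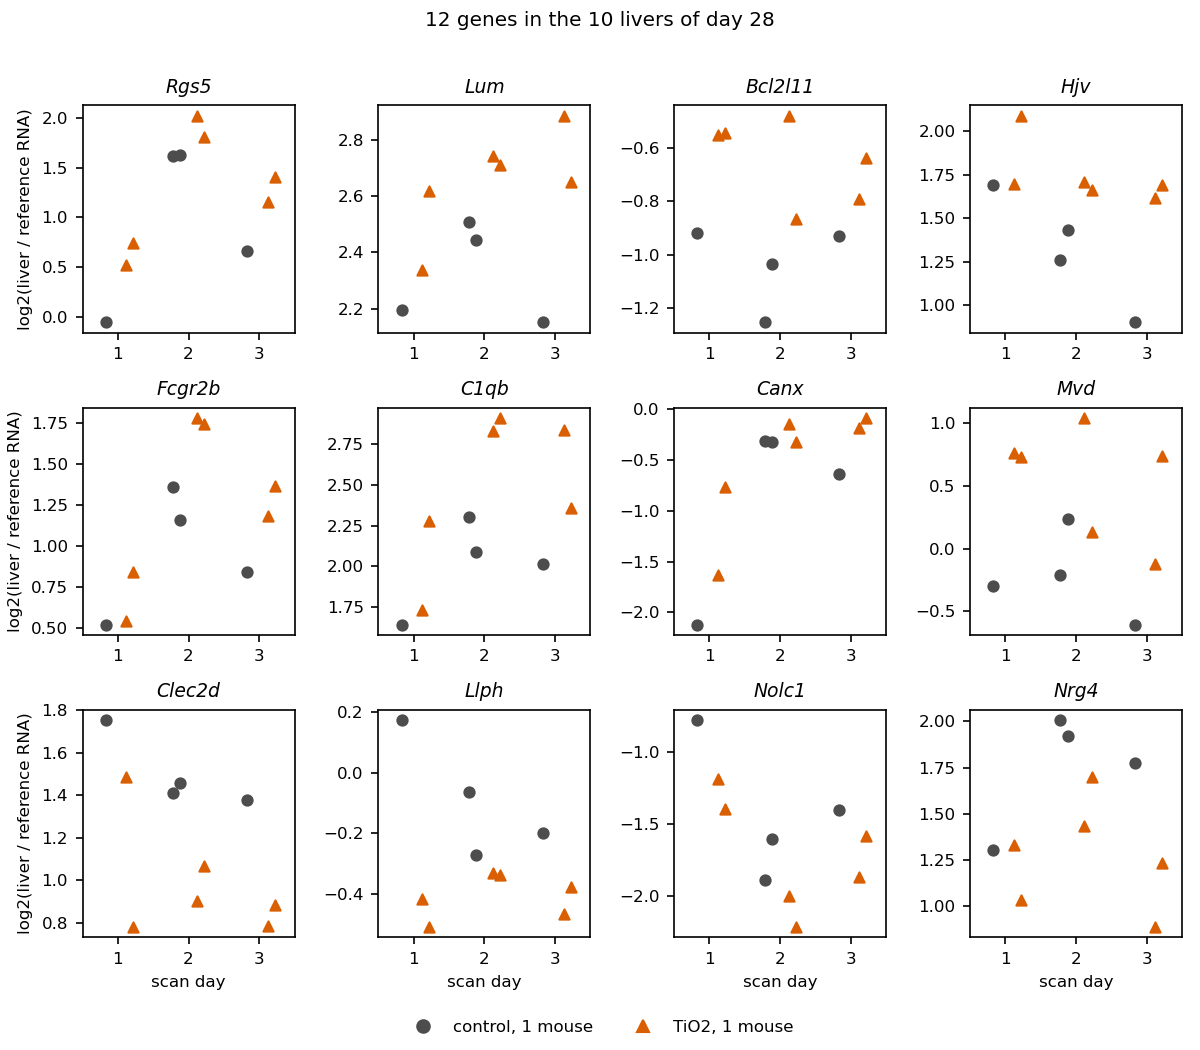
Log2 ratio of liver over reference RNA for 12 genes in the 10 livers of day 28, by scan day of the array on the x axis; grey circles are controls and orange triangles TiO2 livers, 1 point per mouse, and each y axis has its own range. For Rgs5 the TiO2 livers lie above the controls of the same scan day while the level itself moves with the scan day, and for Llph the groups do not overlap.

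In several genes with large differences 1 liver decided the value. Sult2a8, a hepatic sulfotransferase, read 1.21 in control replicate 1 and 6.71 to 6.88 in the other 3 controls, with 6.29 to 7.00 in the 6 TiO2 livers. The fitted difference was 1.32 ± 0.64 with that control and -0.21 without it. Ces2a, a carboxylesterase, read 0.42 in the same control and 3.49 to 4.09 in the others, with 3.44 to 4.45 in TiO2 livers, and its difference was 1.00 ± 0.53 with it and -0.06 without it. In the opposite direction, Pf4, a chemokine of platelets, read -0.10 in that control and -3.82 to -3.33 in the other 3. Its difference was -0.82 ± 0.31 with it and -0.13 without it. Arhgdib, a gene of blood cells, read 0.13 in it and -3.02 to -2.62 in the others, with -0.62 ± 0.29 and 0.03 as the differences. So in 4 of the 12 named genes with the largest differences, 6 in each direction, the value rested on 1 control liver, whose array had 4 quality metrics out of range. It was the only control of scan day 1, where both TiO2 arrays had 2 metrics out of range, and the cause was not tested.

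**Figure D3:**
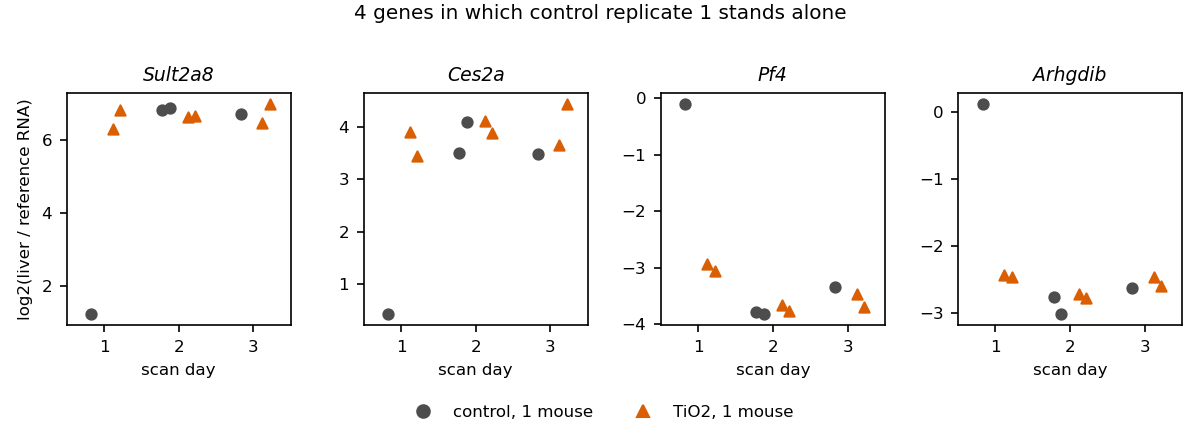
Log2 ratio of liver over reference RNA for Sult2a8, Ces2a, Pf4 and Arhgdib, by scan day on the x axis; grey circles are the 4 control livers, orange triangles the 6 TiO2 livers, and each y axis has its own range. In each panel the single control of scan day 1 stands away from the other 9 livers, for Sult2a8 at 1.21 against 6.29 to 7.00.

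Of the other genes with large differences, Cyp7a1, which catalyses the limiting step from cholesterol to bile acids, was lower in every slide pair. It read 6.24, 4.34, 4.26 and 5.41 in controls and 5.17, 3.66, 3.42, 3.73, 2.76 and 4.71 in TiO2 livers, so the groups overlapped. The difference was -1.23 ± 0.50, a second probe gave -0.53, and the value was -0.73 without control replicate 1 and TiO2 replicate 5 and -0.20 over the arrays whose quality report was in range. The other bile acid genes were near 0, with 15 of 24 above 0 and a median of 0.02, and Abcc2, the canalicular exporter of conjugated bilirubin, was at -0.33 ± 0.17. Mt2 and Mt1, the metallothioneins that bind zinc and copper, were at -0.86 ± 0.61 and -0.50 ± 0.37. Without control replicate 4 they were at -0.57 and -0.15, and Mt1 was at -0.81 without control replicate 3 and at 0.36 within scan day 2. Xlr4b at -0.93 ± 0.44 and Xlr3c at -0.65 ± 0.28 belong to a family of near-identical X-linked genes, whose probes may not tell the copies apart. Xlr3c was at -0.35 without control replicate 2. Aacs, which activates acetoacetate for lipid synthesis, was at 0.73 ± 0.37 with 1.54, 0.20 and 0.89 within the 3 scan days.

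Grouped into 43 lists of genes, the medians ran from -0.08 to 0.23, against 0.00 over all features. The medians of 6 lists were above 0.1, of 0 lists below -0.1, and 37 lay between. No list held a member that passed the adjusted p.

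**Figure D4:**
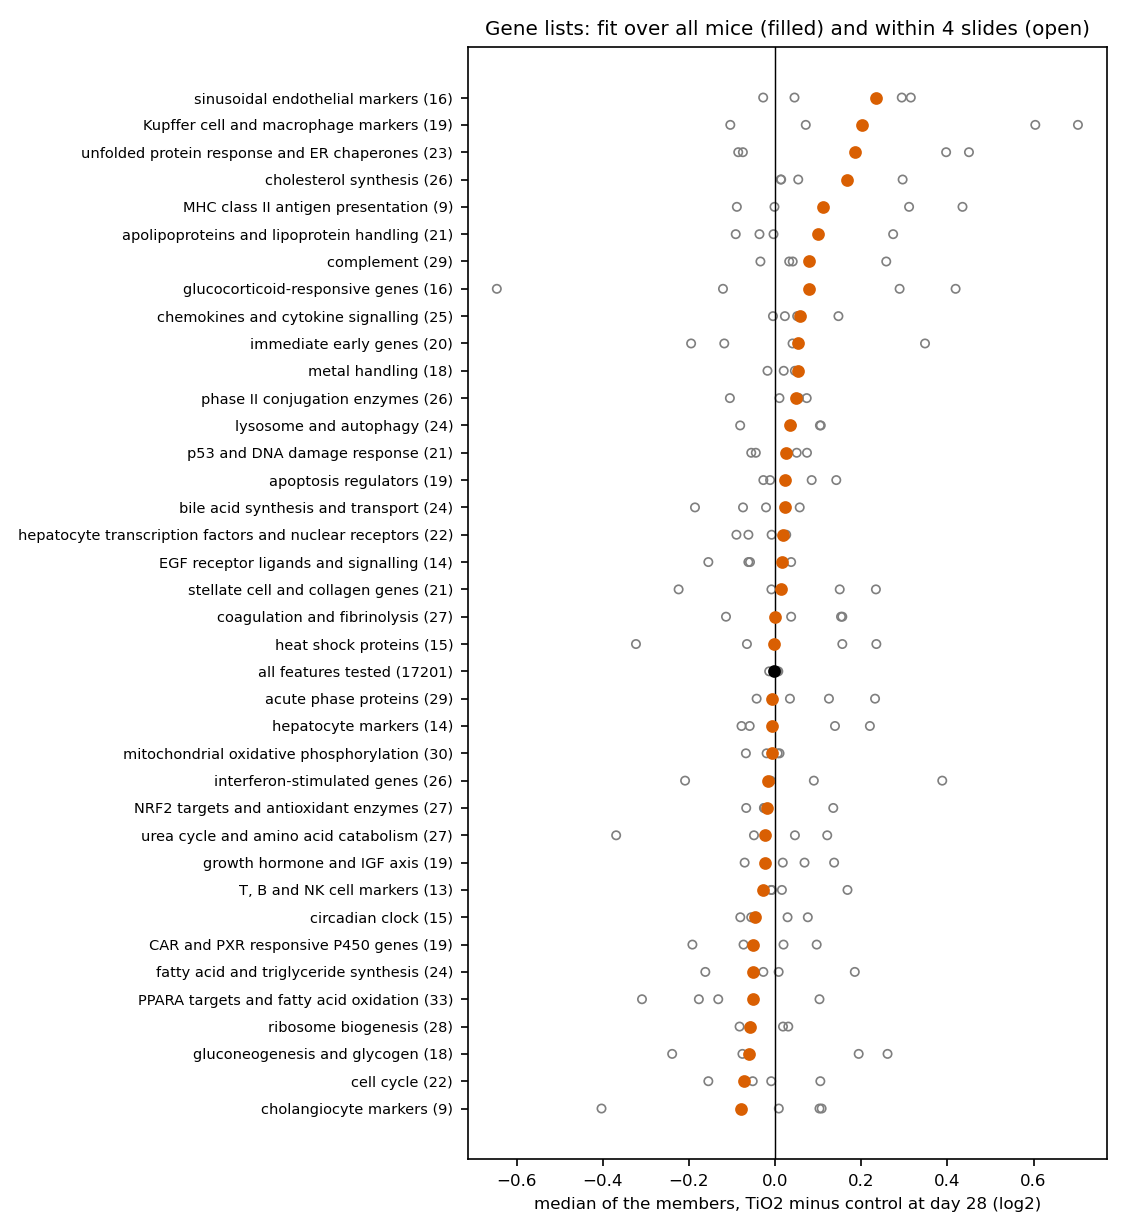
Median log2 difference of TiO2 minus control liver at day 28 over the measured members (number in brackets) of each list with at least 9 members, and over all features (black); filled points are the fit over all mice, open circles the medians within the 4 slides that hold 1 control and 1 TiO2 liver. The sinusoidal endothelial and Kupffer cell lists lead, and their open circles lie on both sides of 0.

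The markers of the sinusoidal endothelium had the highest median, 0.23. Of 16 measured members, 15 were above 0 (49% of all features were), and 10 were higher within each of the 3 scan days, against 13.2% of all features. Fcgr2b, the inhibitory Fc receptor through which these cells clear immune complexes, read 0.52 in the control and 0.54 and 0.84 in the TiO2 livers of scan day 1. On scan day 2 it read 1.36 and 1.16 against 1.78 and 1.74, and on scan day 3 0.84 against 1.18 and 1.37. It was higher in each of the 4 slide pairs, with a difference of 0.36 ± 0.13. It was the 1 member with limma's unadjusted p under 0.05 (1.48% of all features reached it in that direction). Its 2 other probes gave 0.12 and 0.33.

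Among the scavenger receptors and lectins, Stab1 and Stab2, which take up hyaluronan and modified proteins, were both at 0.20, with standard errors of 0.16 and 0.12. Lyve1, a hyaluronan receptor, was at 0.32 ± 0.22 and Clec4g, a sinusoidal lectin, at 0.25 ± 0.21. Wnt2, a ligand that these cells send to hepatocytes, was at 0.37 ± 0.20, and Kdr, the receptor of VEGF, at 0.24 ± 0.15. Dnase1l3, a secreted DNase, was at 0.32 ± 0.19. Pecam1, Cdh5 and Tek, which all endothelial cells carry, were at 0.03 ± 0.07, 0.11 ± 0.29 and -0.02 ± 0.10. Pecam1, Cdh5 and Tek had smaller values than most of the other members named here. They were set apart after the values were seen, and the contrast was not tested.

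The list mean on each array read 1.90 in the control and 1.94 and 2.06 in the TiO2 livers of scan day 1. On scan day 2 it read 2.77 and 2.34 in controls and 2.79 and 2.71 in TiO2 livers, and on scan day 3 it read 2.00 in the control and 2.33 and 2.55 in TiO2 livers. The median difference within the scan days was 0.08, 0.19 and 0.45. Within the 4 slides it was 0.05, -0.03, 0.29 and 0.32. On day 1 the list stood at -0.09, with 4 of 16 above 0, and for 15 of 16 members the day 28 effect was above the day 1 effect. Over all features the day 1 median was -0.01, with 7830 of 17201 above 0. The median change from day 1 to day 28 was 0.003 over all features and 0.30 over the list. For 2 of the 16 members the change had limma's unadjusted p under 0.05 (2.98% of all features did). The list leads by its day 28 median, which is part of that change, so the values of the change test nothing. Without control replicate 4 the day 28 median was 0.13, without control replicate 2 it was 0.36, and with normexp applied to all spots it was 0.02.

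Kupffer cell and macrophage markers came next, with a median of 0.20 and 16 of 19 members above 0. The complement genes C1qa and C1qb, which macrophages make and which start the classical pathway, led with 0.57 ± 0.25 and 0.51 ± 0.19, and the third chain, C1qc, was at 0.17 ± 0.19. C1qb read 1.64, 2.31, 2.09 and 2.02 in controls and 1.73, 2.28, 2.83, 2.91, 2.84 and 2.36 in TiO2 livers. The TiO2 livers of scan days 2 and 3 all lay above every control. Vsig4, the complement receptor with which Kupffer cells catch particles and bacteria, read 1.86, 2.44, 2.19 and 1.43 in controls and 1.39, 1.68, 2.99, 3.08, 2.56 and 2.39 in TiO2 livers, a difference of 0.47 ± 0.22. These 3 of the 19 reached an unadjusted p under 0.05, as 1.48% of all features did in that direction.

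Cd163, the haemoglobin scavenger receptor, was at 0.29 ± 0.15, and Marco, a scavenger receptor that binds particles, at 0.26 ± 0.40. Other markers of resident Kupffer cells were Clec4f at 0.09 ± 0.20, Timd4 at 0.13 ± 0.17 and Cd5l at -0.03 ± 0.21. The list median was -0.10, 0.41 and 0.32 within the 3 scan days and -0.10, 0.07, 0.70 and 0.60 within the 4 slides, so the livers of scan day 1 did not share it. The median was 0.11 without control replicate 4, 0.12 without control replicate 3, 0.10 without TiO2 replicate 4 and 0.13 without TiO2 replicate 5. On day 1 the list median was 0.15. In whole liver, more cells of a type and more RNA per cell cannot be told apart. Other immune lists were smaller: MHC class II genes had a median of 0.11 with 7 of 9 above 0, and the 5 measured neutrophil genes a median of 0.10, among them S100a9 at 0.64 ± 0.38. The MHC class II median was 0.03 without control replicate 1 or TiO2 replicate 4, 0.04 without control replicate 3 and 0.18 without control replicate 2. The neutrophil median was 0.05 without TiO2 replicate 3, 0.07 without control replicate 2, 0.17 without TiO2 replicate 4 and 0.19 without control replicate 4, and -0.01 with the scanner software's own ratio.

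Complement genes as a list had a median of 0.08 with 19 of 29 above 0, and 9 members were higher within each scan day (13.2% of all features were). The median was -0.06 over the arrays whose quality report was in range and 0.25 with normexp on all spots, so its direction depended on the setting. C6, of the membrane attack complex, was at 0.35 ± 0.17, and C8a and C8b were at 0.39 ± 0.24 and 0.45 ± 0.25. C3, the hub of the cascade, was at 0.04 ± 0.11 and at -0.98 with normexp on all spots, C4b at 0.08 ± 0.12 and the inhibitor Serping1 at -0.09 ± 0.12.

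Genes of the unfolded protein response had a median of 0.19, with 16 of 23 above 0. Hspa5, which encodes the chaperone BiP, read -1.47, 0.48, 0.53 and -0.78 in controls and -0.34, -0.30, 0.33, 0.71, 0.70 and 0.50 in TiO2 livers. Both controls of scan day 2 lay among the TiO2 livers, and the controls of the other scan days lay below all of them. The difference was 0.70 ± 0.32, with 1.15, 0.01 and 1.38 within the scan days, 0.44 without control replicate 4 and 0.10 over the arrays whose quality report was in range. Canx, the lectin chaperone calnexin, was at 0.44 ± 0.16, with its 2 other probes at 0.05 and 0.17, and Pdia6, a disulfide isomerase, at 0.31 ± 0.13. Among the rest, Manf was at 0.54 ± 0.30, Hyou1 at 0.49 ± 0.29 and Xbp1, a transcription factor of the response, at 0.29 ± 0.17. The genes of the PERK arm stood elsewhere, with Ddit3 at -0.12 ± 0.11, Atf4 at -0.07 ± 0.12 and Asns at -0.10 ± 0.13. The list median was 0.41, -0.04 and 0.36 within the scan days, 0.09 without control replicate 4 and -0.03 over the arrays whose quality report was in range.

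The promoters of this list were searched, because the chaperones share a known element, the ER stress response element. The letters CCAAT, any 9 bases and CCACG, in that order, were searched on both strands in the 250 bases before and 50 after the start of each gene in RefSeq's GRCm38.p6 table. They occurred in 8 of the 21 list members with a promoter there (38.1%) and in 37 of all 27025 genes (0.137%). Since chaperones are known to share the element, its larger share in this list does not bear on TiO2. Stretches from 4 members are printed, each gene's strand 5′ to 3′, with the matched letters in capitals, since these genes lead the list or carry the element more than once. They lie at chr2:34772005-34772063 (plus strand) for Hspa5, chr11:50325780-50325838 (minus) for Canx, chr12:17266471-17266529 (plus) for Pdia6 and chr10:86705618-86705676 (minus) for Hsp90b1.
Hspa5: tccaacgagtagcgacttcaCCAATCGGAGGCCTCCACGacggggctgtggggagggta
Canx: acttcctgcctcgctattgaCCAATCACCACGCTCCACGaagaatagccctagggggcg
Pdia6: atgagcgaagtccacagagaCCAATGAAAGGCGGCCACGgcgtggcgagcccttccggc
Hsp90b1: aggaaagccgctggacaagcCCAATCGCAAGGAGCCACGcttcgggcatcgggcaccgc
The element began 65 bases before the start in Hspa5, 145 in Canx, 98 in Pdia6 and 212 in Hsp90b1, whose promoter held a second match on the other strand. All 8 members with the letters were above 0 at day 28, with a median of 0.26, and 3 of them, Hspa5, Canx and Pdia6, had an unadjusted p under 0.05 (1.48% of all features did in that direction). Of the 8, 2 were higher within each of the 3 scan days (13.2% of all features were). Of the 13 members without them, 6 were above 0 and the median was -0.02. Within scan days 1 and 3 the 8 members had medians of 0.42 and 0.55, and within scan day 2 -0.02. A match is a description of these windows and does not show that the element was in use. The contrast between members with and without the letters was not tested, and the list was written with earlier results of these data known.

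**Figure D5:**
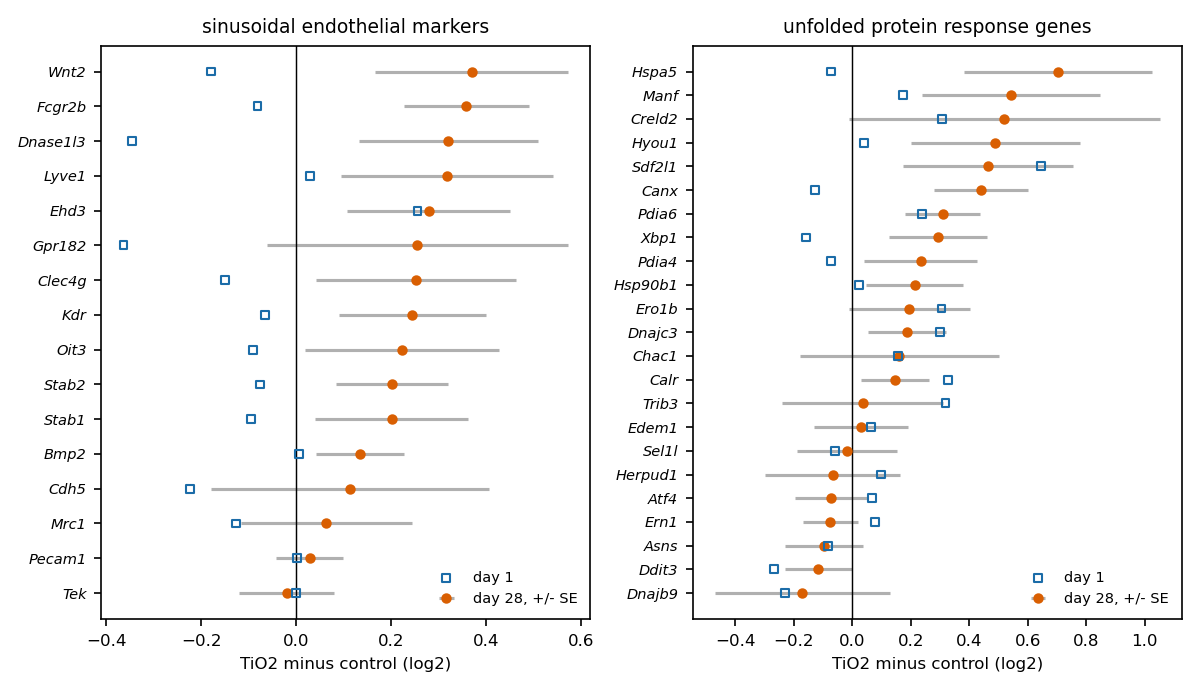
Fitted log2 difference of TiO2 minus control liver for each measured sinusoidal endothelial marker (left) and unfolded protein response gene (right); orange points with grey bars are day 28 with its standard error, open blue squares are day 1. On the left 15 of 16 genes lie above 0 at day 28 and 4 of 16 on day 1, and on the right Hspa5 leads at 0.70.

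Cholesterol synthesis genes had a median of 0.17, with 18 of 26 above 0 and 11 higher within each scan day (13.2% of all features were). This was the 1 list whose median was above 0 in each of the 4 slides (0.30, 0.05, 0.01 and 0.01). Of the enzymes, Mvd, which makes isopentenyl diphosphate, was at 0.74 ± 0.27, Msmo1 at 0.43 ± 0.16, Hmgcs1 at 0.49 ± 0.22 (0.29 without control replicate 1), Sqle, the squalene epoxidase, at 0.35 ± 0.16 and Mvk at 0.29 ± 0.14. Mvd read -0.30, -0.21, 0.24 and -0.60 in controls and 0.76, 0.73, 1.04, 0.13, -0.12 and 0.73 in TiO2 livers. 1 control, at 0.24, lay above 2 of the TiO2 livers. The regulator Srebf2 was at -0.09 ± 0.12. Acss2, which makes acetyl-CoA from acetate, went the other way at -0.45 ± 0.16, with a second probe at -0.25.
The list median was 0.49, -0.01 and 0.20 within the scan days, 0.08 without control replicate 1, 0.27 without control replicate 2, 0.11 without TiO2 replicate 2 and -0.03 over the arrays whose quality report was in range. The core letters of the sterol regulatory element, TCACCCCAC, occurred in the promoter of 1 of 18 members with a promoter in the table, Hmgcs1, and in 0.614% of all genes. The Hmgcs1 stretch is shown with the match in capitals, at chr13:119690194-119690242 on the plus strand, 137 bases before the start.
Hmgcs1: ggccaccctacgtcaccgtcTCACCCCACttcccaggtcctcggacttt

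Genes of fatty acid oxidation under PPARA had 10 of 33 members above 0 and a median of -0.05. Acaa1b, a peroxisomal thiolase, read 3.87, 4.26, 4.28 and 4.40 in controls and 3.56, 3.43, 3.98, 4.12, 4.22 and 4.15 in TiO2 livers, and was lower in each of the 4 slide pairs, at -0.26 ± 0.10. Hadh was at -0.26 ± 0.12 and Acot3, a peroxisomal thioesterase, at -0.44 ± 0.20. The list median was -0.34, 0.03 and -0.02 within the scan days and -0.16 on day 1, and it was 0.03 over the arrays whose quality report was in range. Scd1, the stearoyl-CoA desaturase, was at -0.61 ± 0.28, with -1.25, -0.60 and 0.17 within the scan days, while the 24 genes of fat synthesis had a median of -0.05. Apoc1 was at -0.58 ± 0.24, with -1.79 within scan day 1, -0.08 within day 2 and -0.05 within day 3.

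In amino acid catabolism Prodh, the proline dehydrogenase, was at -0.41 ± 0.15 and the glutaminase Gls2 at -0.32 ± 0.13. Of the 27 measured members of that list, 11 were above 0 and 7 were lower within each scan day (13% of all features were). Among gluconeogenesis and glycogen genes, 6 of 18 were above 0 and Pfkfb1, which sets fructose 2,6-bisphosphate, was at -0.40 ± 0.17. The cytochrome Cyp2a5 was at -0.38 ± 0.15, and the 19 CAR and PXR responsive genes had a median of -0.05. Gstm4, a glutathione transferase, was at 0.33 ± 0.12 and higher in each of the 4 slide pairs, while the NRF2 targets as a list were at -0.02 with 10 of 27 above 0. Cell cycle genes had 4 of 22 above 0 and a median of -0.07, and the 21 genes of the p53 and DNA damage response were at 0.02.

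The acute phase genes, which hepatocytes make in response to inflammation, had a median near 0 at this time. The list median was -0.01 at day 28 and 0.29 on day 1. Saa3 read -1.54 to -0.75 in controls and -1.66 to -0.19 in TiO2 livers, a difference of 0.01 ± 0.48 against 2.47 on day 1. Its change between the days had an adjusted p of 0.9995 with limma. For 7 of the 29 measured list members the effect differed between the days at limma's unadjusted p under 0.05. Over all features the share was 2.98%, and no feature passed the adjusted p. Saa1 and Saa2, whose near-identical sequences can share signal, were at -0.01 ± 0.37 and -0.09 ± 0.18. Haptoglobin, Hp, and the albumin gene Alb were at -0.02 ± 0.15 and -0.13 ± 0.14. Lcn2, an antibacterial protein that binds siderophores, had -0.39 to -0.10 in controls and -0.01 to 0.27 in TiO2 livers and no overlap, but its signal was well above background in just 2 control and 5 TiO2 livers, and its difference was 0.39 ± 0.28. Apcs, the serum amyloid P gene, read 2.82, 2.78, 2.77 and 2.51 in controls and 3.5, 3.04, 3.29, 2.80, 3.28 and 3.58 in TiO2 livers. Only the TiO2 value of 2.80 lay within the control range, the gene was higher in each of the 4 slide pairs, and the difference was 0.52 ± 0.18, against 0.40 on day 1.

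Several other lists stood close to the background. The 30 measured genes of mitochondrial respiration had a median of -0.01 with 14 above 0, and the 24 lysosome and autophagy genes a median of 0.03 with 13 above 0. Interferon-stimulated genes were at -0.02 with 11 of 26 above 0, where Stat2, which carries the interferon signal to the nucleus, was at -0.25 ± 0.14 and the ubiquitin-like Isg15 at 0.19 ± 0.16. Hepatocyte transcription factors and nuclear receptors were at 0.02 with 11 of 22 above 0. Nr0b2, the bile acid induced repressor SHP, was at 0.46 ± 0.32 with 1.08, 0.04 and 0.71 within the scan days. Of the cholangiocyte markers 2 of 9 were above 0, with a median of -0.08 and the keratin gene Krt19 at -0.25 ± 0.16.

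For lists known to follow the hour or stress, the sign of the median changed between scan days. This was not particular to them: the hepatocyte markers were at -0.005, -0.06 and 0.17 within the scan days. The median over all features was 0.014, -0.005 and -0.002. The circadian genes had a median of -0.05, with -0.06, -0.07 and 0.02 within the scan days. Tef, a clock output factor, was at -0.44 ± 0.24 with 0.52 within scan day 1 and -0.68 and -1.01 within days 2 and 3. The immediate early genes were at 0.27, -0.21 and 0.10 within the scan days, and the glucocorticoid-responsive genes at 0.42, -0.33 and 0.33, against a day 28 median of 0.08 and a day 1 median of 0.47. Without control replicate 1 the medians were -0.14 for the immediate early genes and -0.08 for the glucocorticoid-responsive genes, so their sign depended on single livers. The glucocorticoid-responsive median was also -0.05 without control replicate 4, -0.03 without TiO2 replicate 1, 0.23 without control replicate 3 and -0.44 over the arrays whose quality report was in range. The red blood cell genes had a median of -0.04 with 2 of 4 measured members above 0. The lowest of them, the haemoglobin gene Hba-a1, was at -0.41 ± 0.23, with -1.36 within scan day 1 and 0.31 within day 3. The hepatocyte markers had a median of -0.01 with 6 of 14 above 0.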

How the data were processed

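Each array carried liver RNA in Cy5 and reference RNA in Cy3, with no dye swap. The scanner intensity of each spot is the authors' deposited Feature Extraction output (10.7.3.1 per the file headers, 9.5.3.1 per the submitters' processing notes), next to its log10 ratio per the file headers. The log2 values the authors deposited as a processed table were used as an alternative. Median spot intensities were background-corrected with normexp (offset 50) and loess-normalized within arrays, and spots of a probe were averaged, in R 4.3.3 with limma 3.58.1. Of 20884 probes kept, the brightest in liver stood for each gene. limma was fitted over all 21 arrays with 4 group means and scan day as a block, with Benjamini-Hochberg adjustment over 17201 features, of which 170 lacked a value on an array. Groups are spread unevenly over scan days.

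Named genes are the 12 with the smallest unadjusted p and the 6 with the largest difference in each direction (well above background on at least 2 control and 3 TiO2 arrays), up to 4 members of each list with the smallest p, and Saa1, Saa2, Saa3, Lcn2, Apcs, Hp, C3, Alb, Cyp7a1, Mvd, Hmgcs1, Sqle, Mt1, Mt2 and Hmox1. Other members are named by their role, after their values were seen. The members and lists were chosen with earlier results of these data known. The number of arrays limits the precision. Alternatives covered normalization, filters, block, array weights, scan days and single mice. Gene coordinates of the array's own build were not used.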

Additional observations from a re-analysis of the deposited data

Results flagged for a closer look

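In groups of 4 or 6 livers, 1 value stood far from the others in 9 of 93 gene groups and 8 of 86 list groups examined. Chance alone flags about 1 in 20 unselected groups, a share that does not apply here, since genes were named in part for large differences and the groups mix scan days.

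Control replicate 1, the only control liver of scan day 1, accounted for 10 of the 17. It read 1.21 for Sult2a8 (6.71 to 6.88 in the other controls), 0.42 for Ces2a (3.49 to 4.09), -0.10 for Pf4 (-3.82 to -3.33), 0.13 for Arhgdib (-3.02 to -2.62) and 0.42 for Gigyf2 (0.07 to 0.12). Its list means were 5.24 for hepatocyte markers (5.97 to 6.11), 4.41 for urea cycle and amino acid catabolism (5.02 to 5.14), 4.46 for CAR and PXR responsive P450 genes (4.83 to 4.87), 0.30 for the circadian clock (0.75 to 0.76) and -0.30 for neutrophil and granule markers (-0.02 to 0.01). The TiO2 livers of the same scan day shared several of these levels: 5.34 and 5.35 for hepatocyte markers, 4.47 and 4.53 for the urea cycle list and 4.32 and 4.36 for the CAR and PXR list. They read 0.58 and 0.41 for the circadian clock and 0.13 and -0.09 for the neutrophil list.

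Among the other controls, replicate 4 read 2.51 for Apcs (2.77 to 2.82) and replicate 3 had a cholangiocyte marker mean of -1.43 (-0.94 to -0.87). Among TiO2 livers, replicate 1 read 4.26 for Lifr (5.55 to 6.19), with a mean of -0.20 for T, B and NK cell markers (-0.41 to -0.34) and 1.59 for metal handling (1.98 to 2.06). TiO2 replicate 2 read 2.09 for Hjv (1.62 to 1.71) and 0.27 for Lcn2 (-0.01 to 0.09).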

How the results depend on the processing

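No feature passed the adjusted p with limma under any alternative run, and the smallest adjusted p was 0.873, without control replicate 1. The 520 features at an unadjusted p under 0.05 became 153 without the scan-day block, 296 with array weights, 290 for probes above background on all 10 arrays, 1291 with no filter, 284 without scan day 3 and 219 with normexp on all spots. Leaving out 1 mouse gave 343 (TiO2 replicate 2) to 823 (control replicate 3). The share of higher calls, 49.0%, was 8.2% with normexp on all spots (18 higher, 201 lower), 35.0% over arrays in range, 60.4% without scan day 2, 37.7% without scan day 3, 59.5% without control replicate 2, 35.7% without control replicate 4 and 62.1% without TiO2 replicate 1. The 512 features whose effect differed between the days became 124 without the block, and 370 (without TiO2 replicate 2) to 842 (without TiO2 replicate 1) with 1 mouse left out. No paired analysis was possible because the replicate numbers, given in accession order, pair no livers. The shared slides were used in their place: slide as a random block gave 583 features at the unadjusted p and 0 at the adjusted p.

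Of the genes with the smallest p or largest differences, and Mt1, these changed sign. Pf4 was 0.34 in the liver channel alone, 0.0498 over arrays in range and 0.0904 within scan day 2. Arhgdib was 0.55 in the liver channel, 0.12 without scan day 1, 0.10 over arrays in range, 0.14 and 0.0948 within scan days 2 and 3, 0.00058 without control 1 and TiO2 5, and -0.85 to 0.0306 with 1 mouse left out. Sult2a8 was -0.14 without scan day 1, -0.20 over arrays in range, -0.22 within scan day 2, -0.16 without control 1 and TiO2 5, and -0.21 to 1.78 with 1 mouse left out. Ces2a was -0.000504 without control 1 and TiO2 5, and -0.0576 to 1.44 with 1 mouse left out. Mt1 was 0.11 over arrays in range and 0.36 within scan day 2, Hnrnpa1 -0.10 with normexp on all spots, Xlr3c 0.0153 within scan day 1 and Exo5 -0.0549 within scan day 3. The cause was not tested, since leaving out control replicate 1 also leaves scan day 1 without a day 28 control. Normexp on all spots and leaving out control 1 with TiO2 5 were chosen after seeing the data. The alternatives covered 47 named genes and 43 lists, and other list members were not refitted singly. Of 1491 values for the genes, 65 had the other sign, in 15 genes. They include genes near 0, with ranges of -0.54 to 0.22 for Hp, -0.43 to 0.37 for Saa1, -0.39 to 0.20 for Saa3, -0.22 to 0.33 for Saa2 and -0.98 to 0.16 for C3. Alb, at -0.13 in the main fit, ranged from -1.14 to 0.05, and Hmox1, at -0.23, from -0.56 to 0.08. Of 1376 list medians, 262 had the other sign, in 40 lists, of which 4 had a median over 0.1 (cholesterol synthesis, unfolded protein response, Kupffer cell and neutrophil genes).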

Other observations

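Of 17046 features with a value on all 10 arrays, 64 had 1 liver more than 1.5 log2 units away from the other 9. TiO2 replicate 5 stood above in 52 of them, 25 without a gene name. Ppp1r3a, a glycogen-targeting subunit of muscle, read 4.99 there and at most 1.17 elsewhere. Pou5f1, the pluripotency factor, read 4.61 against at most 1.11, and Camk2a, a kinase of neurons, 4.31 against at most 0.97. These spots lay between rows 30 and 525 of 532 and columns 1 and 85 of 85. That array had the fewest liver probes well above background, 12985.

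Control replicate 1 stood below in 5 features, among them Rgs16, a regulator of G-protein signalling, at 0.41 against at least 2.20, and Lpin1, a phosphatidate phosphatase, at 0.54 against at least 2.15. It stood above in 2, Pf4 and Arhgdib. TiO2 replicate 1 stood below in 3 features, Slc22a28 at 0.79 against at least 2.69, Acot1, an acyl-CoA thioesterase, at -1.29 against at least 0.34, and Cyp4a14, a fatty acid hydroxylase under PPARA, at 5.61 against at least 7.12. Control replicate 2 stood above in 1, Hao2, a peroxisomal hydroxyacid oxidase, at 3.73 against at most 1.84.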
